A study of Mus musculus with 60 samples.

Results

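The 47 genes described here encode chromatin regulators: enzymes that write or remove marks on histones and DNA, motors that move nucleosomes, and proteins that bind both. They were taken as a list of symbols and matched through GENCODE M21 to the gene identifiers of the deposited table. All 47 were found among its 18088 genes, and all 47 passed the filter on low values. They fall into 9 classes: 7 methyltransferases acting on lysine 4 of histone H3 (H3K4) or related to these, 6 other proteins of the histone methyltransferase type, 4 histone demethylases, 9 CHD remodellers, 7 subunits of the BAF complex, 2 histone acetyltransferases, 4 deacetylases or corepressors, 5 enzymes of DNA methylation, and 3 further chromatin-binding proteins.

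DNA in the nucleus is wound around histones, and the marks on both set how readily a gene is read. Methylation of H3K4 marks promoters and enhancers in use, and methylation of lysine 27 by the Polycomb complex marks silenced genes. CHD proteins and the BAF complex use ATP to slide or evict nucleosomes. Acetyltransferases loosen the packing and deacetylases reverse this. DNMT enzymes methylate cytosine, and TET enzymes oxidise the methyl group as a step towards its removal. Many of these genes are known in humans as causes of autism or intellectual disability when 1 copy is lost, and the young cortex uses several of them while neurons mature.

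RNA was measured by sequencing in the prefrontal cortex of C57BL/6J mice on postnatal day 25. Mice carried 1 copy of the Grin2b allele C456Y (Het), an amino acid change in an NMDA receptor subunit, or were wild type (WT). Both genotypes received fluoxetine, an inhibitor of serotonin reuptake, lithium, a mood stabiliser, or vehicle through the milk of their mothers from day 3 to day 24, for 3 weeks. This gave 6 genotype-by-drug groups, namely Het fluoxetine, Het lithium, Het vehicle, WT fluoxetine, WT lithium and WT vehicle, each of 5 female and 5 male libraries, 60 in all. The allele is present in every cell and the drug reached every pup through its mother, so neither is confined to a cell type. The labels do not say whether the numbered replicates are separate animals or litters, and the p-values measure the spread between these samples.

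The promoters of 4 genes on which the results below turn are shown, chosen after their values were seen: the methylcytosine oxidases Tet2 and Tet3, the deacetylase Hdac5 and the H3K36 methyltransferase Setd2. Each window of 300 bases lies around the gene start that RefSeq lists and runs 5′ to 3′ on the gene's strand, from RefSeq on GRCm38.p6. Capitals mark the letters GGGCGGG, an Sp factor motif, on either strand. The windows lie at chr3:133544341-133544640 on the minus strand (Tet2), chr6:83441629-83441928 on the minus strand (Tet3), chr11:102230123-102230422 on the minus strand (Hdac5) and chr9:110532347-110532646 on the plus strand (Setd2).
Tet2: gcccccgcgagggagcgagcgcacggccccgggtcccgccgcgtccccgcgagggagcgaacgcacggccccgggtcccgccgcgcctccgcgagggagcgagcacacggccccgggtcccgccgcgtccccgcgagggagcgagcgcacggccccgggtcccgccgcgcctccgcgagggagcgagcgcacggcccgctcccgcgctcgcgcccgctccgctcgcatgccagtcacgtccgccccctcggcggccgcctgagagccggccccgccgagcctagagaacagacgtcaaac
Tet3: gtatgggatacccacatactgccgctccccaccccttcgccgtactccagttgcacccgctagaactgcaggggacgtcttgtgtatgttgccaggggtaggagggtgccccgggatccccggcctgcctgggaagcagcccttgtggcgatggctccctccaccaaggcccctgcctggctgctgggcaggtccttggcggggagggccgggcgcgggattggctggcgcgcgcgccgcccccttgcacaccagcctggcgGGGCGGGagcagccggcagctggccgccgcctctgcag
Hdac5: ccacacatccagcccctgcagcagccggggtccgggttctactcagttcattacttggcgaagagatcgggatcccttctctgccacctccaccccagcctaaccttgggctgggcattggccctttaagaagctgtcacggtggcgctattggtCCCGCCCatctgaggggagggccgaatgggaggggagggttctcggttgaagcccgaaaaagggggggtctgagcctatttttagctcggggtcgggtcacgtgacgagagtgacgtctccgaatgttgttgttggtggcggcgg
Setd2: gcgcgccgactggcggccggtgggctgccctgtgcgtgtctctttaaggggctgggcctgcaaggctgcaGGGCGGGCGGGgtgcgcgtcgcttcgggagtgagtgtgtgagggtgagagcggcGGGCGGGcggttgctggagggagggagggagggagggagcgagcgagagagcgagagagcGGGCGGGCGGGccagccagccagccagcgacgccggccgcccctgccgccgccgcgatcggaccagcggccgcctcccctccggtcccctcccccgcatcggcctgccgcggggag

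The Setd2 window held 5 matches, some overlapping, the Tet3 and Hdac5 windows 1 each and the Tet2 window 0. The genes lie, on GRCm38 in GENCODE M21, at chr3:133463679-133545139 (Tet2), chr6:83362373-83459084 (Tet3), chr11:102194432-102230166 (Hdac5) and chr9:110532597-110618633 (Setd2). By these spans the Tet2 and Tet3 windows lie wholly inside the gene, downstream of the 5′ end that GENCODE gives, and need not be the promoters used in cortex. Tet2 had 57 CpG pairs in its 300 bases, Setd2 38, Tet3 22 and Hdac5 18. A promoter was listed for 35 of the 47 genes. Their median was 29 CpG pairs per window (range 1 to 57), against a median of 7 over all 27025 promoters, with quartiles at 3 and 21. The Sp letters were in 18 of the 35 (51.4%) and in 25.8% of all promoters. Of 5 other motifs searched on both strands, none of the 35 held the longer NRF1 (0.977% of all promoters) and YY1 (0.899%) motifs, the ETS letters CCGGAAGT (4%), the CRE letters TGACGTCA (1.88%) or the EGR letters GCGTGGGCG (0.625%).

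The genes are long and differed widely in how deeply they were read. Their longest transcripts had a median of 8507 bases (range 2787 to 19823), against 3162 over all genes, and a median GC content of 50.6% (range 41.9% to 59.8%), against 49.3%. Together they took 0.5073% to 0.6386% of the reads of a library. Per kilobase of transcript, the mean normalised read count over the 60 libraries was highest for Chd3 (3400) and Smarcc2 (1770), subunits of the NuRD and BAF complexes, followed by the BAF motor Smarca2 (1240) and the neuronal NuRD motor Chd5 (1190). It was lowest for Chd7 (45), Tet1 (52) and Ezh2 (72.1), the Polycomb methyltransferase. The spread within a group of sex, genotype and drug differed widely between genes. The coefficient of variation was 3.09% for Chd8 and 3.2% for Setd5, against 27.2% for Chd7 and 23.1% for Ezh2.

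Totals of 23901635 to 37769417 reads per library lay behind these values. Grin2b RNA does not check the genotype, since the allele is a missense change, and its median in vehicle was 18398.3 in Het against 17200.7 in WT libraries. Under fluoxetine it was higher in Het than in WT, at a log2 fold of 0.24 (limma adjusted p = 0.00198). It rose with fluoxetine in Het (0.32, limma adjusted p = 1.05e-04) and with lithium in WT (0.19, limma adjusted p = 0.0329). In the other comparisons between groups its limma adjusted p was 0.0976 or more. Markers of cortical pyramidal neurons, glia and vessels were read in every library, with none at 0, which shows brain tissue but does not tell prefrontal cortex from other cortex. The summed level of 6 striatal markers reached 25489 in WT lithium (median 5159) and 17796 in WT fluoxetine (median 4544). In the other 4 groups the highest values were 6907 to 9079 and the medians 4187 to 5034. The sum of 7 olfactory bulb and immature neuron markers reached 24354 in WT vehicle (median 11017) and 23426 in Het vehicle (median 6562). It reached 22936 in Het fluoxetine (median 8343) and 16048 in Het lithium (median 7218). In WT it reached 15991 in fluoxetine (median 9113) and 17103 in lithium (median 8812). In bulk tissue, fewer cells of a type and less RNA per cell cannot be told apart. Libraries differed in how their values followed GC content: the correlation of a library's deviations with GC, over 12472 genes, ran from -0.468 to -0.154 in the 10 Het fluoxetine libraries and was negative in all of them. It lay between -0.35 and 0.513 in Het lithium and between -0.22 and 0.354 in Het vehicle. In WT it lay between -0.008 and 0.4 in fluoxetine, between -0.756 and 0.325 in lithium and between -0.509 and 0.321 in vehicle. The value of -0.756, in WT lithium male replicate 5, was the lowest of the 60. Further, 10 libraries stood below a gap in the mean log2 level of 16 pseudogenes, at 3.153 or less against 4.604 or more in the others. They were WT vehicle female replicate 2 and 9 of the 10 Het fluoxetine libraries, all but male replicate 1. The 16 were taken from 23 genes over 4-fold apart between Het and WT under fluoxetine. A gap between those groups therefore follows from the choice of genes. Results are given with a GC correction, and with a term in the model for the 10 libraries below the gap, called the library term. Within Het fluoxetine that term rests on 1 library against 9.

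A gene is called here when its limma p, adjusted by Benjamini-Hochberg over the 17810 genes tested, is below 0.05. Each comparison sets 10 libraries against 10, averaged over the sexes, and every fold is a difference of log2(value + 1). Counts at an unadjusted limma p below 0.05 come without a share of all genes. They cannot be set against the shares of genes called, which use the adjusted p. Of the 7 comparisons between groups, Setd1a and Setd5 were called in 4 each, 4 genes in 3, 19 genes in 2 and 13 genes in 1. The 9 members called in none were Ezh2, Kdm1a, Chd5, Chd7, Chd9, Arid1b, Smarcc2, Ep300 and Pogz. The comparisons share libraries, so repeated calls are not independent. No such tally is given over all genes, so it sets no member apart.

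**Figure D1:**
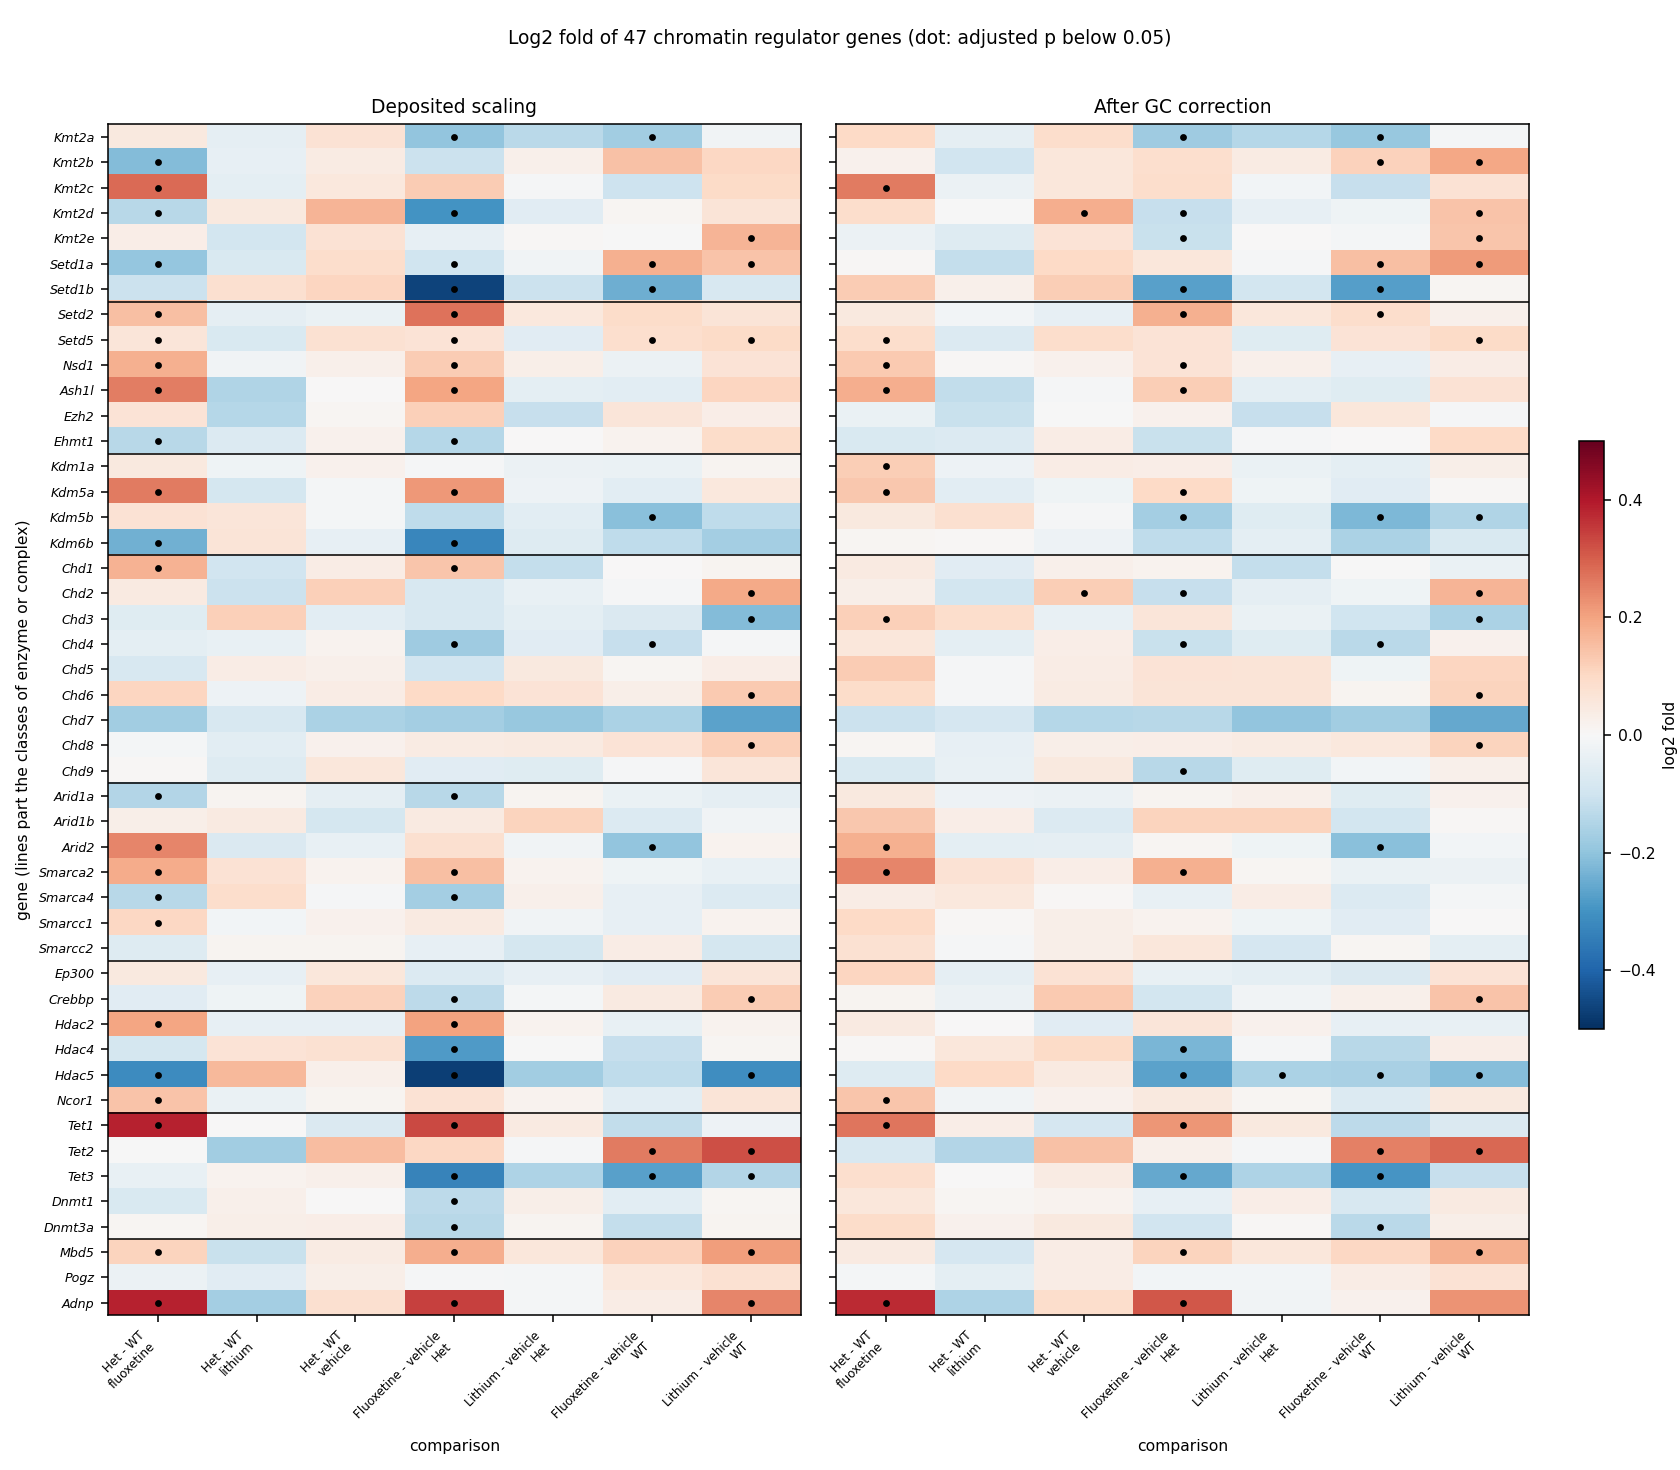
Colour gives the log2 fold of each of the 47 genes (rows, parted by class) in 7 comparisons (columns), with the deposited scaling on the left and after GC correction on the right, and a dot marks an adjusted p below 0.05. Dots cluster in the fluoxetine columns and in lithium minus vehicle in WT, and the columns Het minus WT in lithium, Het minus WT in vehicle and lithium minus vehicle in Het hold none on the left.

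Fluoxetine in WT mice changed 9 of the 47 genes, 3 up and 6 down, beside 8.43% of all genes called (1502), 4.35% up and 4.08% down. The median log2 fold of the 47 was -0.034, against 0 over all genes. Among H3K4 methyltransferases Setd1a rose and Setd1b and Kmt2a fell. Among DNA demethylation enzymes Tet2 rose and Tet3 fell. The demethylase Kdm5b, the BAF-type subunit Arid2 and the NuRD motor Chd4 also fell, and Setd5 rose slightly.

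Setd1a, a catalytic subunit of the SET1 complex that places most H3K4 trimethylation, had a lowest, median and highest normalised read count of 2000.7, 2073 and 2160.2 in WT fluoxetine, against 1666.7, 1838.2 and 1992.5 in WT vehicle. Its log2 fold was 0.18 (SE 0.03, limma adjusted p = 3.4e-04). All 10 fluoxetine libraries lay above all 10 vehicle libraries. Its paralog Setd1b moved the other way, with 1114.4, 1358.3 and 1539.7 in WT fluoxetine and 1417.5, 1550.7 and 1920.7 in WT vehicle. Its log2 fold was -0.25 (SE 0.07, limma adjusted p = 0.0137), with all 10 fluoxetine libraries below the vehicle mean and overlapping ranges. Kmt2a, the MLL1 methyltransferase, had 3735.2, 4247.3 and 5000.7 against 3934.1, 4773.8 and 5660.9, a log2 fold of -0.17 (SE 0.05, limma adjusted p = 0.0237) with wide overlap.

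Tet3, the main TET enzyme of mature neurons, was lower in every WT fluoxetine library than in any WT vehicle library. It had 2447.4, 2582 and 2871.3 in fluoxetine and 2929.5, 3163.2 and 3388.7 in vehicle, a log2 fold of -0.27 (SE 0.05, limma adjusted p = 2.65e-04). Tet2 had 1450.3, 1515.5 and 1846.3 in fluoxetine and 1139.1, 1229 and 1580.6 in vehicle, a log2 fold of 0.26 (SE 0.05, limma adjusted p = 5.62e-04). All 10 fluoxetine values of Tet2 were above the vehicle mean of 1300, though the ranges overlapped. Tet3 and Setd1a were the only members whose groups did not overlap, in a comparison where 0.545% of all genes did not overlap.

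Kdm5b, which removes methyl groups from H3K4, had 1531.4, 1716.1 and 2066.8 in WT fluoxetine, against 1806, 1990.5 and 2424.1 in WT vehicle, with a log2 fold of -0.21 (limma adjusted p = 0.0114). Arid2, a subunit of the PBAF form of the complex, had 1216.9, 1303.2 and 1403.1 against 1314.6, 1490.7 and 1719.6, at -0.20 (limma adjusted p = 0.018). The groups overlapped for both genes, and all 10 fluoxetine libraries of Arid2 were below the vehicle mean. Chd4 had 4552.9, 5104.5 and 5516.2 against 5090, 5447.8 and 6158.6, at -0.11 (limma adjusted p = 0.0488). Setd5, a SET-domain protein tied to deacetylase complexes, had 3964.1, 4073.1 and 4220.2 against 3704.1, 3810.2 and 4234.3, at 0.08 (limma adjusted p = 0.0241). These 2 changes were the smallest of the 9, and both ranges overlapped. Chd4 kept its call in 7 of 20 fits that each left out 1 library, Kmt2a in 15, Setd5 in 17 and the other 6 in 20. The 38 genes not called lay between -0.16 (Chd7) and 0.15 (Kmt2b). After GC correction 12 genes were called beside 12.4% of all genes. These kept 8 of the 9, with Setd5 lost (adjusted p = 0.0865) and Kmt2b, Setd2, Hdac5 and Dnmt3a added. Under the library term all 9 and Hdac5 were called, beside 8.75% of all genes. Of the libraries compared here that term marks only WT vehicle female replicate 2. It can therefore shift these folds only a little, and the kept calls do not test the state of the libraries. Of 7 endothelial markers 3 were lower in WT fluoxetine, with summed levels of 6372 to 10205 against 7619 to 9665 in WT vehicle, and their part in these results was not tested.

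**Figure D2:**
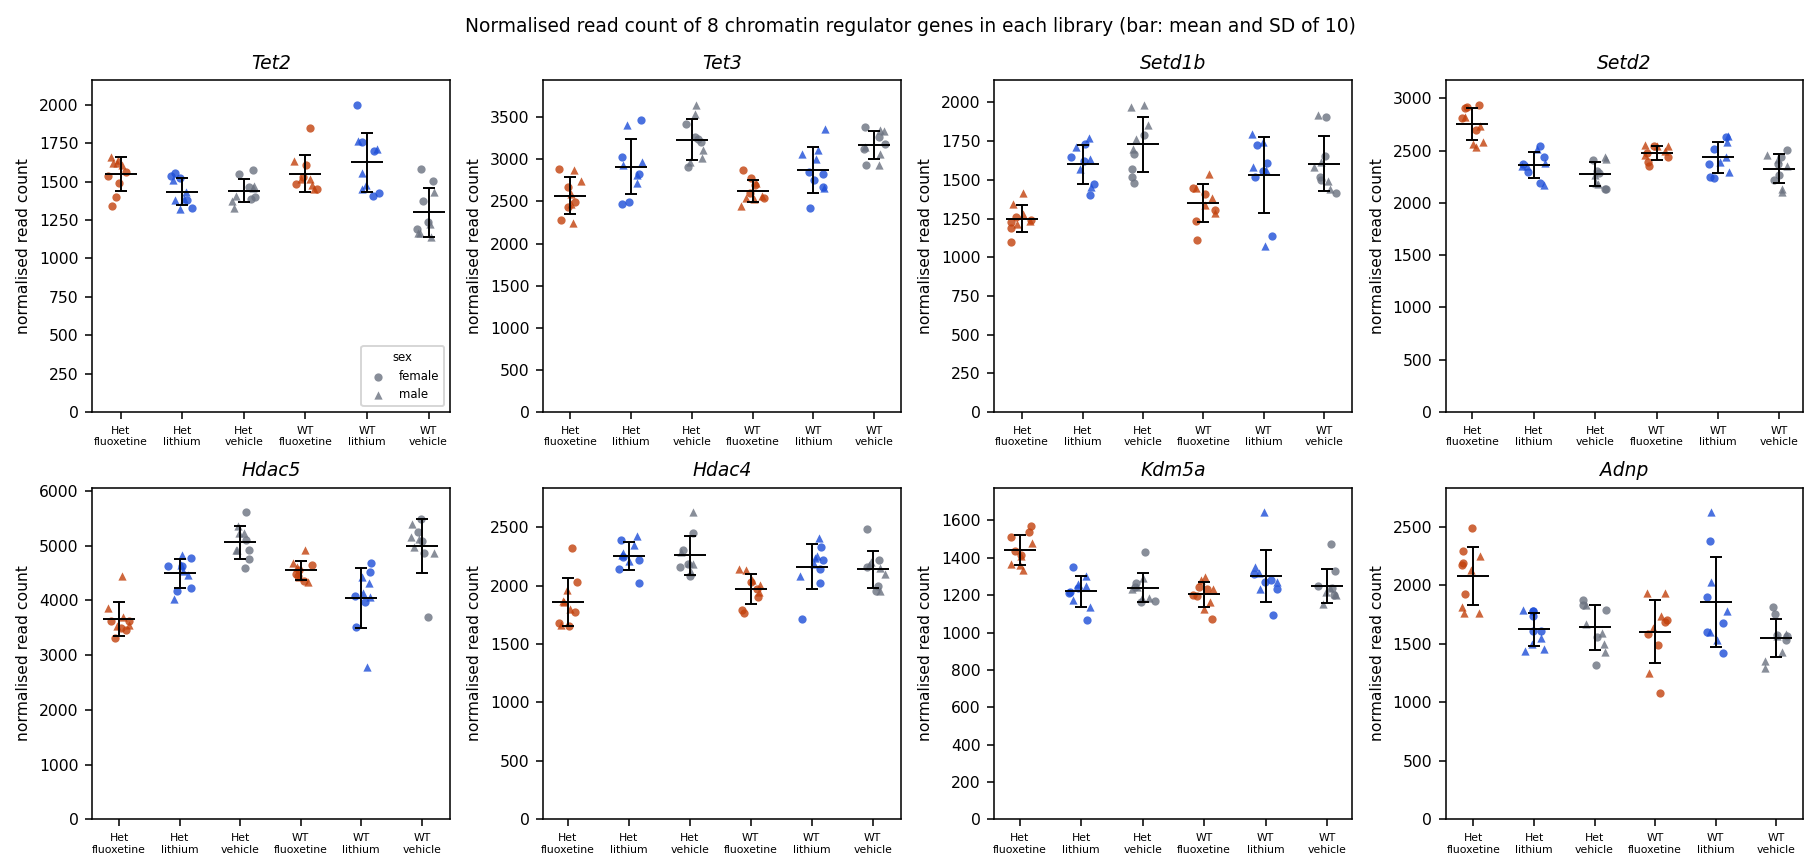
Each point is the normalised read count of 1 library (circles female, triangles male) for 8 of the genes in the 6 groups, and the bar gives the mean and SD of 10 libraries. Tet3 and Setd1b sit lower and Setd2 sits higher in fluoxetine than in vehicle libraries of Het mice, without overlap, and the mean of Tet2 is higher in both WT drug groups than in WT vehicle.

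Fluoxetine in Het mice changed 26 of the 47 genes, 11 up and 15 down, beside 39% of all genes called (6952), 19.1% up and 19.9% down. The median log2 fold was -0.042, against 0.005 over all genes. Of the 7 H3K4 methyltransferases 4 fell and 0 rose, while 4 of the 6 other histone methyltransferases rose and 1 fell. The class IIa deacetylases Hdac4 and Hdac5 both fell and the class I deacetylase Hdac2 rose. Tet3, Dnmt1 and Dnmt3a fell and Tet1 rose. Of the 10 pyramidal neuron markers 4 were lower, with summed levels of 119360 to 165881 in Het fluoxetine against 135439 to 208563 in Het vehicle. Of 7 endothelial markers 4 were lower, at 6809 to 8429 against 7142 to 11657. Their part in these results was not tested.

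Hdac5, which leaves the nucleus when calcium signalling is high, had a lowest, median and highest value of 3307.3, 3586.9 and 4451.5 in Het fluoxetine and 4591.7, 5011.7 and 5610.2 in Het vehicle. Its log2 fold was -0.47 (SE 0.06, limma adjusted p = 2.36e-08), or -0.27 after GC correction (adjusted p = 2.61e-08). The groups did not overlap. Setd1b had 1096.4, 1237.1 and 1415.6 against 1479.9, 1729.3 and 1984.5, a log2 fold of -0.46 (SE 0.07, limma adjusted p = 7.03e-07), or -0.27 after GC correction (adjusted p = 1.08e-04). Tet3 had 2249, 2541.2 and 2883.1 against 2907.5, 3225.9 and 3646.1, a log2 fold of -0.33 (SE 0.05, limma adjusted p = 1.76e-06), or -0.26 after GC correction (adjusted p = 0.00111). For both genes every fluoxetine library was below every vehicle library.

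Kmt2d, which places H3K4 monomethylation at enhancers, was also lower without overlap, with 3452.9, 3834.5 and 4529.5 in Het fluoxetine against 4541.8, 4702.3 and 5185.6 in Het vehicle. Its log2 fold was -0.30 (SE 0.05, limma adjusted p = 6.62e-06) and -0.12 after GC correction (adjusted p = 0.0452). Hdac4 had 1651.8, 1829.9 and 2324.5 against 2078.8, 2192.3 and 2627.5, at -0.28 (SE 0.05, limma adjusted p = 1.93e-05). Kdm6b, which removes the Polycomb mark, had 709.4, 875.3 and 1289.4 against 999, 1067.1 and 1508.4, at -0.33 (SE 0.09, limma adjusted p = 0.00206). In both genes 9 of 10 fluoxetine libraries were below the vehicle mean and the ranges overlapped. Chd4 had 4323.8, 4907.9 and 5300.8 against 5293.4, 5507.5 and 6059.4, at -0.18 (limma adjusted p = 2.16e-04), and Kmt2a 3790, 4535 and 5202.7 against 4598.7, 5009.7 and 5800.6, at -0.20 (limma adjusted p = 0.00219). All fluoxetine values of Chd4 were below its vehicle mean.

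Among the genes that rose, Setd2, which trimethylates H3K36 along transcribed genes, had 2530.8, 2773.1 and 2936.8 in Het fluoxetine against 2128.6, 2275 and 2433.9 in Het vehicle. Its log2 fold was 0.27 (SE 0.04, limma adjusted p = 4.74e-08), or 0.18 after GC correction (adjusted p = 9.61e-06). It was the only member that rose without overlap. With Hdac5, Setd1b, Tet3 and Kmt2d it made 5 members without overlap, beside 4.12% of all genes. Kdm5a, an H3K4 demethylase, had 1334.7, 1423.9 and 1572.3 against 1163.5, 1237.2 and 1430.3, at 0.22 (SE 0.04, limma adjusted p = 1.23e-04). Tet1 had 684.5, 900.1 and 1117 against 556.2, 745.8 and 818.7, at 0.33 (SE 0.08, limma adjusted p = 8.21e-04). Adnp, a homeodomain protein that works with Chd4, had 1763.1, 2152.4 and 2488.2 against 1321.3, 1633.3 and 1877.4, at 0.34 (SE 0.09, limma adjusted p = 0.00141). In these 3 genes the ranges overlapped, with at least 9 of 10 fluoxetine libraries above the vehicle mean.

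Mbd5, a methyl-CpG-binding domain protein, had 2004, 2212.7 and 2449.3 in Het fluoxetine against 1731.8, 1945.8 and 2149.8 in Het vehicle, at 0.18 (limma adjusted p = 1.99e-04). Nsd1, an H3K36 methyltransferase, had 4870.7, 5260.4 and 5500.3 against 4446.8, 4822.7 and 5057.5, at 0.13 (limma adjusted p = 7.04e-04). Ash1l, which also methylates H3K36, had 4489.8, 4728.4 and 6004.2 against 3796.8, 4391.5 and 4835.7, at 0.20 (limma adjusted p = 0.00129). In all 3 every fluoxetine library was above the vehicle mean. Hdac2 had 2208.7, 2414.9 and 2708.4 against 1806.4, 2102.5 and 2384.6, at 0.20 (limma adjusted p = 0.00505). The remaining changes were smaller: Smarca2, Chd1 and Setd5 rose by log2 folds of 0.07 to 0.15, and Smarca4, Dnmt3a, Crebbp, Setd1a, Ehmt1, Arid1a and Dnmt1 fell, at -0.10 to -0.17. The 21 genes not called lay between -0.17 (Chd7) and 0.13 (Kmt2c). Among them were the acetyltransferase Ep300 (-0.07), the H3K4 demethylase Kdm1a (-0.005), the NuRD motor Chd5 (-0.10), the BAF subunits Arid1b (0.05) and Smarcc2 (-0.04), the Polycomb enzyme Ezh2 (0.12) and Pogz (-0.007), which binds heterochromatin protein HP1.

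The direction of these folds followed base composition. Across the 47 genes the Spearman correlation of the fold with the GC content of the transcript was -0.789, given as a description over genes that share the same libraries. Of the 23 genes below 50% GC, 10 were called higher and 0 lower, and of the 24 at or above 50%, 1 was called higher and 15 lower. Over all genes the median log2 fold was 0.11 below 50% and -0.115 at or above it. In fluoxetine in WT the same correlation was -0.177, and with lithium it was -0.416 in WT and -0.148 in Het. For Het minus WT it was 0.074 in vehicle and 0.652 in lithium, with 0 members called in either. For the lithium interaction it was 0.419. After GC correction 19 members were called for fluoxetine in Het, beside 19.6% of all genes. Of the 26 calls 15 were kept: Kmt2a, Kmt2d, Setd1b, Setd2, Nsd1, Ash1l, Kdm5a, Chd4, Smarca2, Hdac4, Hdac5, Tet1, Tet3, Mbd5 and Adnp. Kmt2e, Kdm5b, Chd2 and Chd9 were added. The GC and length correction kept 14 of the 26, without Nsd1 (adjusted p = 0.773), Kdm5a (adjusted p = 0.291), Ash1l (adjusted p = 0.0937) and Mbd5, and with Crebbp, Dnmt3a and Ehmt1. No share of all genes is given for that setting. The GC correction subtracts from each library whatever follows GC.

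**Figure D3:**
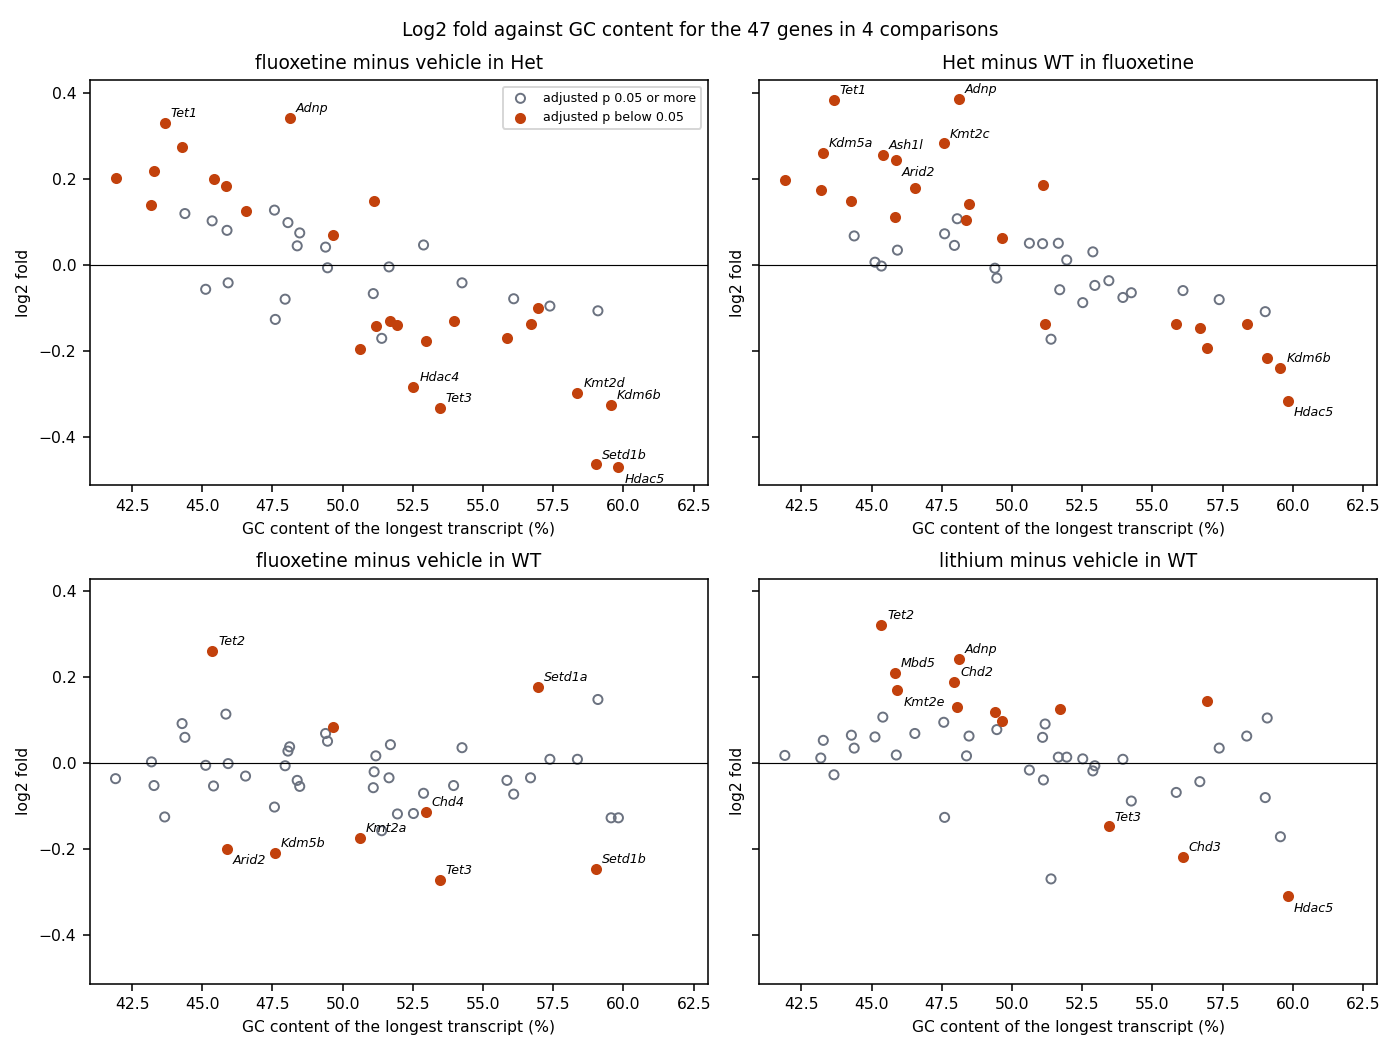
The log2 fold of each of the 47 genes (y) is plotted against the GC content of its longest transcript in % (x) in 4 comparisons, with filled points for an adjusted p below 0.05. In the upper panels, which both use the Het fluoxetine libraries, points slope down from left to right (Spearman -0.789 and -0.829), and in the lower panels the slope is weaker (-0.177 and -0.416).

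With the library term 2 members were called for fluoxetine in Het, beside 0.275% of all genes. These were Setd2, at 0.27 (limma adjusted p = 0.0498), and Smarcc2, which was not among the 26, at 0.41 (limma adjusted p = 0.00415). Smarcc2 rested on Het fluoxetine male replicate 1, whose value of 13037.1 stood apart from the next highest of 7847.6 in that group. That library is the 1 Het fluoxetine library outside the low set. Within that group it therefore weighs on the library-term fold of every gene, that of Setd2 included. It lay outside the range of the other 9 Het fluoxetine libraries in 11 of the 47 genes. In every gene some library of a group is lowest and some library is highest, and no share of all genes is given. The count of 11 therefore does not set this library apart from the other 9 Het fluoxetine libraries. Whether the drug or the state of these libraries sets the values was not tested. When single libraries were left out, 22 to 26 genes were called, and Chd1 kept its call in 7 of 20 fits, Dnmt1 in 11, Arid1a in 13, Ehmt1 in 14 and Setd5 in 16.

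**Figure D4:**
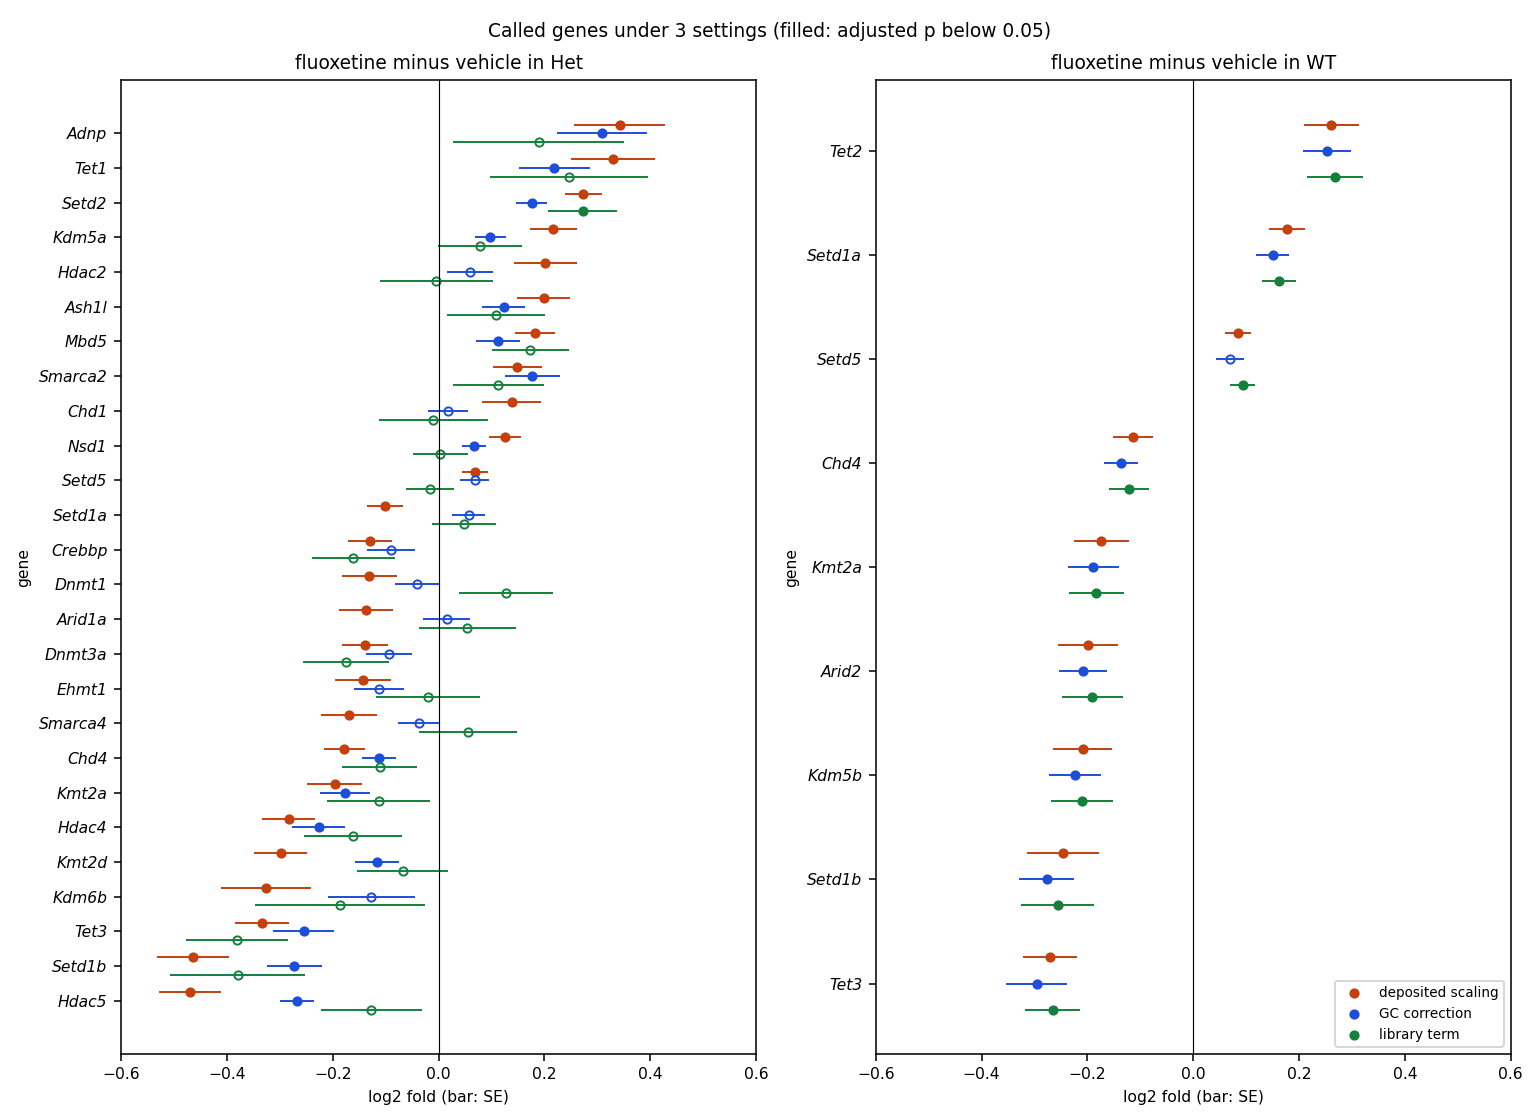
Points give the log2 fold and bars the SE of each called gene with the deposited scaling, the GC correction and the library term, filled where the adjusted p was below 0.05, for fluoxetine minus vehicle in Het (left, 26 genes) and in WT (right, 9 genes). On the right the 3 settings lie close together, while on the left most GC-corrected folds are nearer 0 and the library term has the widest bars, with Setd2 the only filled library-term point. On the right that term marks only WT vehicle female replicate 2, so it can shift those folds only a little.

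Under fluoxetine, Het differed from WT in 23 of the 47 genes, 15 higher and 8 lower, beside 39.5% of all genes called (7042), 19.6% higher and 19.9% lower. The median log2 fold was 0.03, against -0.012 over all genes. The same Het fluoxetine libraries enter this comparison and the preceding one. Nsd1, Kdm5a and Ash1l were higher in every Het than in any WT library, 3 members without overlap beside 5.09% of all genes (3.44% higher and 1.66% lower in Het). Nsd1 had a lowest, median and highest value of 4870.7, 5260.4 and 5500.3 in Het fluoxetine against 4413.4, 4609.7 and 4862.8 in WT fluoxetine, a log2 fold of 0.18 (SE 0.03, limma adjusted p = 1.3e-05). Kdm5a had 1334.7, 1423.9 and 1572.3 against 1075.2, 1216.9 and 1295.5, at 0.26 (SE 0.04, limma adjusted p = 1.77e-05). Ash1l had 4489.8, 4728.4 and 6004.2 against 3759.9, 4281 and 4463.6, at 0.26 (SE 0.05, limma adjusted p = 8.08e-05). After GC correction the 3 folds were 0.13, 0.13 and 0.18 and all remained called. With the GC and length correction Nsd1 (0.05, adjusted p = 0.251) and Kdm5a (0.06, adjusted p = 0.248) lost the call and Ash1l kept it (0.10, adjusted p = 0.0241).

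Adnp and Tet1 had the largest folds, 0.39 (SE 0.09, limma adjusted p = 3.86e-04) and 0.38 (SE 0.08, limma adjusted p = 1.49e-04). Adnp had 1763.1, 2152.4 and 2488.2 in Het fluoxetine and 1084.3, 1663.7 and 1936.7 in WT fluoxetine, and Tet1 684.5, 900.1 and 1117 against 625.3, 654.3 and 773.1. Kmt2c, the enhancer partner of Kmt2d, had 2679.8, 3350.3 and 3801.4 against 2504.4, 2782.8 and 3048.3, at 0.28 (SE 0.05, limma adjusted p = 5.44e-05). The ranges of these 3 overlapped. Arid2 had 1383.2, 1549.3 and 1736.6 against 1216.9, 1303.2 and 1403.1, at 0.24 (limma adjusted p = 6.31e-04), and Setd2 2530.8, 2773.1 and 2936.8 against 2354, 2485.4 and 2548.1, at 0.15 (limma adjusted p = 6.79e-04). For Arid2 and Setd2 all 10 Het libraries were above the WT mean. Ncor1, Smarca2, Hdac2, Smarcc1, Chd1, Mbd5 and Setd5 were higher by log2 folds of 0.06 to 0.20.

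Setd1a had 1672.9, 1814.6 and 2070.2 in Het fluoxetine and 2000.7, 2073 and 2160.2 in WT fluoxetine, a log2 fold of -0.19 (SE 0.03, limma adjusted p = 3.03e-05). Hdac5 had 3307.3, 3586.9 and 4451.5 against 4336.8, 4519.2 and 4926.5, at -0.32 (SE 0.06, limma adjusted p = 4.51e-05). Kmt2b had 1993.5, 2128.3 and 2432.5 against 2373, 2508.6 and 2671.5, at -0.22 (SE 0.05, limma adjusted p = 7.9e-04). In each of these 3 the highest Het libraries reached into the WT range. After GC correction Setd1a was at 0.01 (adjusted p = 0.94), Hdac5 at -0.06 (adjusted p = 0.204) and Kmt2b at 0.02 (adjusted p = 0.763), so that the call ended for all 3 and the sign turned for Setd1a and Kmt2b. Kdm6b had 709.4, 875.3 and 1289.4 against 939.8, 1035.3 and 1265.9, at -0.24, and Kmt2d 3452.9, 3834.5 and 4529.5 against 3956.4, 4319.6 and 4887.3, at -0.14. Arid1a, a DNA-binding BAF subunit, had 3234.9, 3804 and 4152.3 against 3723.7, 4238.3 and 4628.5, at -0.15, and the BAF motor Smarca4 4254.5, 4527.9 and 4926.5 against 4289, 5148.7 and 5439.2, at -0.14. Ehmt1, an H3K9 methyltransferase, had 895.8, 1013.6 and 1157.9 against 1007.9, 1096.3 and 1237.4, at -0.14. The limma adjusted p of these 5 lay between 0.0195 (Arid1a) and 0.0344 (Smarca4), all 10 Het libraries were below the WT mean for Arid1a and Smarca4, and all 5 ranges overlapped. None of the 8 lower genes kept its call after GC correction, and with the GC and length correction Hdac5 alone did, at -0.11 (adjusted p = 0.025). The 24 genes not called lay between -0.17 (Chd7) and 0.11 (Chd6).

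After GC correction 12 members differed, beside 13.1% of all genes, and all 10 calls kept were of genes higher in Het: Kmt2c, Setd5, Nsd1, Ash1l, Kdm5a, Arid2, Smarca2, Tet1, Adnp and Ncor1. Kdm1a and Chd3 were added. With the library term 1 member was called, Smarcc2, beside 0.0393% of all genes. Of 10 pyramidal markers 3 were higher and 1 lower in Het fluoxetine, with summed levels of 119360 to 165881 in Het and 137844 to 191682 in WT, and of 6 precursor markers of oligodendrocytes 3 were lower. Their part in these results was not tested. Setd5 kept its call in 8 of 20 fits that left out 1 library, Ehmt1 in 12, Smarca4 in 13, Kmt2d and Kdm6b in 17 and Arid1a and Mbd5 in 19.

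The fold between fluoxetine and vehicle differed between genotypes in 15 of the 47 genes, tested as an interaction, beside 24% of all genes called (4272). The same Het fluoxetine libraries enter this interaction, and whether the drug or the state of these libraries sets the values was not tested. The effect in Het minus that in WT was positive for 10 genes and negative for 5, beside 11.9% and 12% of all genes. Tet1 had the largest, at 0.46 (SE 0.11, limma adjusted p = 0.00316), with a fluoxetine fold of 0.33 in Het and -0.12 in WT. Hdac5 had -0.34 (SE 0.08, limma adjusted p = 0.00283), with -0.47 in Het and -0.13 in WT. Kmt2d had -0.31 (SE 0.07, limma adjusted p = 0.0019), with -0.30 in Het and 0.01 in WT. Setd1a had -0.28 (SE 0.05, limma adjusted p = 1.16e-04), with -0.10 in Het and 0.18 in WT. Its Het fold was positive with the GC correction (0.057), the GC and length correction (0.026) and the library term (0.048), and was called in none of these. After GC correction Setd1a was at -0.09 (adjusted p = 0.184), Hdac5 at -0.11 (adjusted p = 0.143) and Kmt2d at -0.10 (adjusted p = 0.345), while Tet1 was still called. With the GC and length correction all 4 were called, Setd1a at -0.15 (adjusted p = 0.0213), Hdac5 at -0.16 (adjusted p = 0.0287), Kmt2d at -0.17 (adjusted p = 0.0177) and Tet1 at 0.28 (adjusted p = 0.029). For Setd1b the difference of -0.22 (limma adjusted p = 0.0882) and for Tet3 that of -0.06 (limma adjusted p = 0.573) were not called.

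The other positive interactions were Arid2 (0.28), Kdm5a (0.27), Ash1l (0.25), Hdac2 (0.24), Kmt2c (0.23), Setd2 (0.18), Smarca2 (0.17), Nsd1 (0.16) and Ncor1 (0.13), and the other negative ones Kmt2b (-0.26) and Crebbp (-0.17). Arid2, which fell in WT, was at 0.08 in Het. Smarca2 and Ncor1 kept the call in 10 and 11 of 40 fits that left out 1 library. After GC correction 8 members were called, beside 7.46% of all genes, of which Kmt2c, Nsd1, Ash1l, Kdm5a, Arid2 and Tet1 were among the 15 and Chd3 and Tet2 were not. The GC and length correction called 9, of which Kmt2c, Kmt2d, Setd1a, Crebbp, Hdac5 and Tet1 were among the 15. No share of all genes is given for that setting. With the library term limma called 0 of the 47, with 0.0449% of all genes called.

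Lithium in WT mice changed 13 of the 47 genes, 10 up and 3 down, beside 19.2% of all genes called (3420), 9.34% up and 9.87% down. The median log2 fold was 0.035, against 0.004 over all genes. Of the CHD remodellers 3 (Chd2, Chd6 and Chd8) rose and Chd3 fell. Tet2, Mbd5, Setd1a, Kmt2e, Setd5, the acetyltransferase Crebbp and Adnp also rose, and Hdac5 and Tet3 fell. In none of the 47 were the groups without overlap, beside 0.23% of all genes. Markers of other cell types moved with lithium: 7 of 8 microglial, 5 of 7 endothelial, 6 of 7 pericyte and smooth muscle, 6 of 7 meningeal, 4 of 8 astrocyte and 3 of 6 oligodendrocyte precursor markers were lower, and 0 of 8 oligodendrocyte markers were called. The summed levels were 6983 to 10015 in WT lithium against 9718 to 11504 in WT vehicle for microglia. In the same groups they were 5771 to 8113 against 7619 to 9665 for endothelium, 3563 to 6581 against 6237 to 7363 for pericytes and 2881 to 6754 against 4334 to 7853 for meninges. Their part in these results was not tested.

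Tet2 had a lowest, median and highest value of 1405.8, 1627.4 and 1999.7 in WT lithium against 1139.1, 1229 and 1580.6 in WT vehicle. Its log2 fold was 0.32 (SE 0.05, limma adjusted p = 2.77e-05), or 0.29 after GC correction (adjusted p = 1.1e-05). The same vehicle libraries served for the fluoxetine fold of 0.26. Chd2, a remodeller whose loss in humans causes epilepsy, had 1804.7, 2077.9 and 2314.8 against 1703.3, 1844 and 1959.9, at 0.19 (SE 0.03, limma adjusted p = 1.17e-04). Mbd5 had 1930.4, 2141.9 and 2451 against 1788.1, 1889.4 and 1976.5, at 0.21 (SE 0.04, limma adjusted p = 1.3e-04). In all 3 every lithium library was above the vehicle mean, and the ranges overlapped. Chd8, a leading human autism gene and the least variable of the 47 within groups, had 3099.6, 3231.8 and 3478.1 against 2802.4, 2962.6 and 3268.5, at 0.12 (SE 0.03, limma adjusted p = 5.31e-04).

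Hdac5 had 2777, 4105 and 4680.6 in WT lithium and 3701.2, 5102.8 and 5481.6 in WT vehicle, a log2 fold of -0.31 (SE 0.06, limma adjusted p = 1.85e-04), or -0.21 after GC correction (adjusted p = 6.31e-06). All 10 lithium libraries were below the vehicle mean of 4989.2. Chd3 had 16869.2, 23004.9 and 25961 against 20454.2, 26988.1 and 28786, at -0.22 (SE 0.05, limma adjusted p = 0.00233). Tet3 had 2423.8, 2837 and 3360.8 against 2929.5, 3163.2 and 3388.7, at -0.15 (limma adjusted p = 0.0361), and was at -0.12 (adjusted p = 0.157) after GC correction. Of the other genes that rose, Setd1a had 1643, 2009.5 and 2378.3 against 1666.7, 1838.2 and 1992.5, at 0.14 (limma adjusted p = 0.00238), and Kmt2e, an MLL-family protein without known methyltransferase activity, had 3432, 3655.2 and 4248.5 against 2729.7, 3263.7 and 3889.8, at 0.17 (limma adjusted p = 0.00314). All 10 lithium libraries of Kmt2e and 9 of Setd1a were above the vehicle mean. Setd5 had 3859.8, 4136.5 and 4405.9 against 3704.1, 3810.2 and 4234.3, at 0.10 (limma adjusted p = 0.00478), and Crebbp 2015.8, 2362.7 and 2658.7 against 1969.4, 2080.1 and 2654.1, at 0.13 (limma adjusted p = 0.0267). Adnp and Chd6 were at 0.24 and 0.13, and in these 4 genes 8 of 10 lithium libraries were above the vehicle mean.

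Chd6 kept its call in 7 of 20 fits that left out 1 library, Adnp in 10, Tet3 in 14 and Crebbp in 15. In a fit to the WT lithium and WT vehicle libraries alone, 4 genes were called: Chd2, Hdac5, Tet2 and Mbd5. That fit draws its spread from fewer libraries, and no share of all genes is given for it. After GC correction 14 were called, beside 19.3% of all genes, with 11 shared, Tet3 and Adnp lost and Kmt2b, Kmt2d and Kdm5b added. With the library term 15 were called, beside 22.7% of all genes. Of the libraries compared here that term marks only WT vehicle female replicate 2, so it can shift these folds only a little. The 34 genes not called lay between -0.27 (Chd7) and 0.11 (Ash1l).

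Lithium in Het mice changed 0 of the 47 genes in limma and 0 in edgeR, beside 0.983% of all genes called (175). At the looser threshold of an unadjusted limma p below 0.05 there were 6 members. Tet3 had 2468.1, 2879.8 and 3464 in Het lithium and 2907.5, 3225.9 and 3646.1 in Het vehicle, at -0.15 (SE 0.05, limma adjusted p = 0.128). Hdac5 had 4029.9, 4583.5 and 4832 against 4591.7, 5011.7 and 5610.2, at -0.17 (SE 0.06, limma adjusted p = 0.138). All 10 lithium libraries of Hdac5 were below the vehicle mean, and it was called after GC correction, at -0.16 (adjusted p = 0.00539), beside 2.12% of all genes. With the library term 0 members were called, beside 1.12% of all genes. No Het lithium or Het vehicle library is marked by that term, so it cannot change these folds. The 47 folds lay between -0.19 (Chd7) and 0.11 (Arid1b). Tet2, which rose in WT, had medians of 1409.8 in Het lithium and 1431.6 in Het vehicle.

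The lithium effect differed between genotypes in 1 gene, Chd2, beside 0.0674% of all genes called (12), 0.0618% with a negative sign. At the looser threshold of an unadjusted limma p below 0.05 there were 12 members, with no share of all genes given. Chd2 was at -0.23 (SE 0.05, limma adjusted p = 0.0393), with a lithium fold of -0.04 in Het and 0.19 in WT. It had 1782.3, 1930.1 and 2096.9 in Het lithium and 1749.2, 2004.9 and 2117.1 in Het vehicle, so the Het groups overlapped almost wholly. Chd2 kept its call in 20 of 40 fits that left out 1 library. It also kept the call with edgeR and with the library term. It lost the call with the GC and length correction and with trimmed mean of M values scaling. It was not called in a fit to the compared groups alone, or without the 3 libraries with the largest residuals. Tet2 was at -0.33 (SE 0.07, limma adjusted p = 0.0567) and Setd5 at -0.15 (SE 0.04, limma adjusted p = 0.0568). After GC correction Chd2, Tet2 and Setd1a were called, beside 0.264% of all genes.

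Without a drug, Het differed from WT in 0 of the 47 genes in limma and 0 in edgeR, beside 0.59% of all genes called (105). At the looser threshold of an unadjusted limma p below 0.05 there were 6 members. The median log2 fold was 0.024, against -0.002 over all genes, and all 47 lay between -0.16 (Chd7) and 0.17 (Kmt2d). Kmt2d had 4541.8, 4702.3 and 5185.6 in Het vehicle and 3724.9, 4243.6 and 5184.7 in WT vehicle, at 0.17 (SE 0.05, limma adjusted p = 0.109), with all 10 Het libraries above the WT mean. Chd2 had 1749.2, 2004.9 and 2117.1 against 1703.3, 1844 and 1959.9, at 0.12 (SE 0.03, limma adjusted p = 0.103). Both were called after GC correction, Kmt2d at 0.18 (adjusted p = 0.0133) and Chd2 at 0.12 (adjusted p = 0.042), beside 1.26% of all genes. Setd5 (0.08, limma adjusted p = 0.177) and Tet2 (0.16, limma adjusted p = 0.201) were called when the 3 libraries with the largest residuals, replicate 2 of the WT vehicle females and replicate 5 of both sexes in WT lithium, were left out. Under lithium, 10 members had an unadjusted limma p below 0.05 between Het and WT. Het differed from WT there in 0 members in limma and 0 in edgeR, beside 0.0281% of all genes called. The count was also 0 after GC correction, beside 0.0168% of all genes. The smallest p was that of Tet2, at -0.17 (SE 0.05, limma adjusted p = 0.184).

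A difference between the sexes was tested for the 7 comparisons. In 6 of them limma called 0 of all genes, with 3, 10, 6, 3, 4 and 0 members at an unadjusted p below 0.05 for Het minus WT in vehicle, in fluoxetine and in lithium, fluoxetine in WT, fluoxetine in Het and lithium in Het, and no other tool was run for these. The lithium effect in WT differed between females and males in 5 members, beside 9.64% of all genes (1716). Kmt2b was at 0.32 (SE 0.10, limma adjusted p = 0.0416) and Setd1a at 0.22 (SE 0.07, limma adjusted p = 0.0357), female minus male. Arid2 was at -0.38 (SE 0.11, limma adjusted p = 0.0345), Tet1 at -0.52 (SE 0.16, limma adjusted p = 0.0345) and the de novo methyltransferase Dnmt3a at -0.30 (SE 0.09, limma adjusted p = 0.0318). Median Tet1 was 668.5 in lithium and 767.7 in vehicle females, and 828 in lithium and 682.5 in vehicle males. Median Arid2 was 1428.3 in lithium and 1496.8 in vehicle females, and 1613 in lithium and 1433.5 in vehicle males. These differences changed with single libraries. None of the 47 was called without WT lithium female replicate 5, WT lithium male replicate 5, WT vehicle female replicate 2 or WT vehicle male replicate 4, each left out alone. The count was 2 without WT vehicle female replicate 3 or WT vehicle male replicate 1, 2 or 3, and 9 to 11 without WT lithium female replicate 4, WT lithium male replicate 1 or 3, or WT vehicle female replicate 5. The same count of 0 was found after GC correction and with the library term.

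Within each sex, with 5 libraries against 5, fluoxetine in Het changed 19 members in females (11 up, 8 down) beside 25.2% of all genes, and 13 in males (4 up, 9 down) beside 15.8%. Het differed from WT under fluoxetine in 18 members in females (13 higher, 5 lower) beside 33.2% of all genes, and in 1 in males beside 3.1%. Lithium in WT changed 8 members in females (6 up, 2 down) beside 11.8% of all genes, and 15 in males (13 up, 2 down) beside 20.8%. Fluoxetine in WT changed 1 member in females and 2 in males, beside 2.18% and 2.13% of all genes. A gap between such counts is not a test: genes were called for a sex difference in the lithium effect in WT alone, and there 1 of all genes was called, against 1716, without any one of WT lithium female 5, WT lithium male 5 or WT vehicle female 2.

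**Figure D5:**
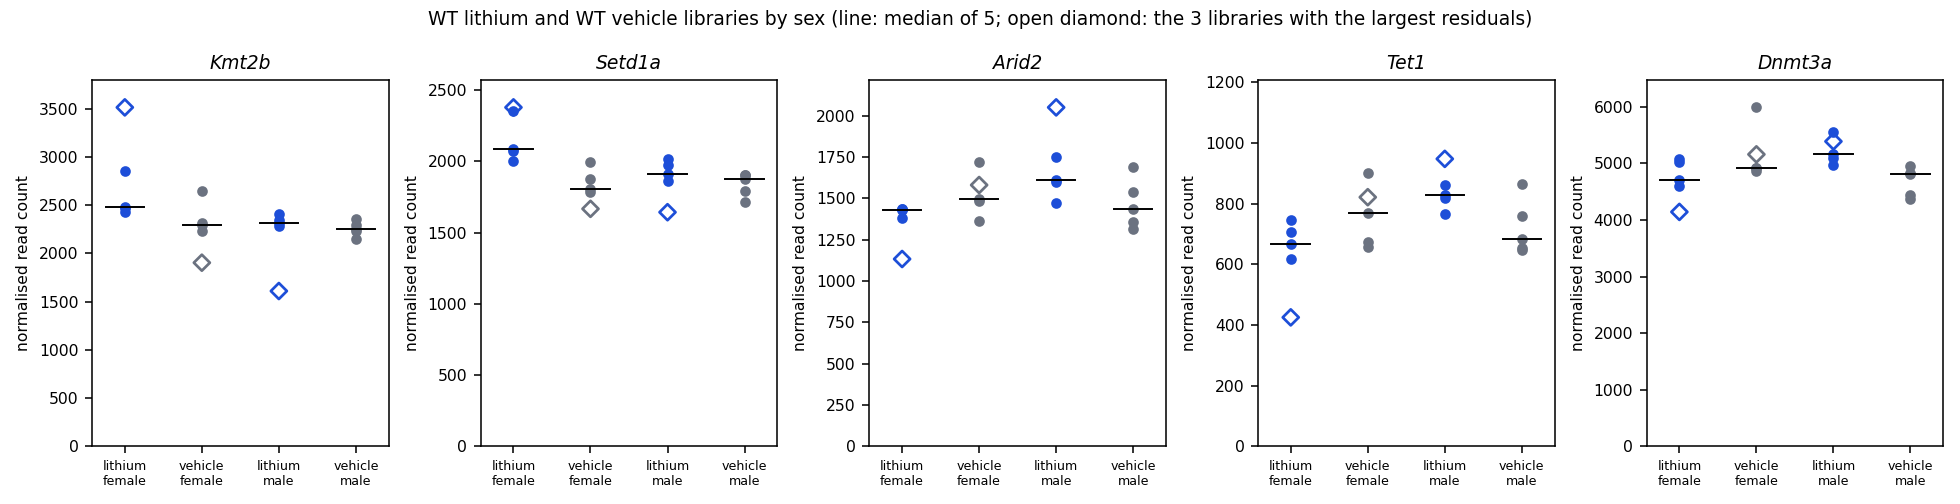
Normalised read counts of the 5 genes whose lithium effect in WT differed by sex are shown for the 5 libraries of each WT lithium and WT vehicle group, females left and males right, with a line at the median and open diamonds for WT lithium female 5, WT lithium male 5 and WT vehicle female 2, the 3 libraries with the largest residuals. Diamonds hold the highest Kmt2b and the lowest Tet1 of the lithium females, and in males the lithium values of Tet1 lie mostly above the vehicle values.

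Chd7 and Ezh2, which are high in immature cells, varied most between libraries of a group and were called in no comparison. Chd7, the remodeller mutated in human CHARGE syndrome, ran from 232.2 to 712.3 in Het fluoxetine, 298.4 to 521.9 in Het lithium and 314.1 to 762 in Het vehicle, against 326 to 630.8 in WT fluoxetine, 365.1 to 567.5 in WT lithium and 314.6 to 840.1 in WT vehicle. Its highest library ranked among the top 3 of 10 in the summed level of 7 olfactory bulb and immature neuron markers in 5 of the 6 groups, and at rank 6 in WT lithium. Those sums ran from 6001 to 24354 over all libraries. The highest Ezh2 library ranked 1 to 3 in all 6 groups. The lowest library did not always have a low sum: it ranked 4 for Chd7 in WT fluoxetine, 6 for both genes in Het lithium and 4 for Ezh2 in WT lithium. The part of dissection or of immature cells in these values was not tested.

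The other genes of chromatin regulation were counted on a list of 114 that are not members. For counts after GC correction and with the library term, the shares of all genes called are those given above for the same comparisons. Fluoxetine in Het changed 67 (26 up, 41 down), or 58.8%, beside 39% of all genes. After GC correction 43 were called and with the library term 1, Kmt5a (-0.39, adjusted p = 0.0317). Atrx (0.31), a remodeller of heterochromatin, Setdb2 (0.42) and Pbrm1 (0.25) were among those that rose. The neuronal BAF subunit Dpf1 (-0.41), Hdac7 (-0.34), the CoREST subunit Rcor2 (-0.39) and the H4K20 methyltransferase Kmt5a (-0.30) fell. Under fluoxetine 65 differed between Het and WT (34 higher, 31 lower), or 57%, beside 39.5% of all genes, among them Atrx (0.34), Smarca5 (0.26) and Phf10 (0.24) above, and Dot1l (-0.30), Dpf1 (-0.29), Hdac7 (-0.27) and Actl6b (-0.20) below. After GC correction 34 were called, without Smarca5 (0.08, adjusted p = 0.0687), Dot1l (-0.09, adjusted p = 0.175), Dpf1 (-0.08, adjusted p = 0.249) and Hdac7 (-0.005, adjusted p = 0.961), and with the library term 0. The interaction called 47 (23 positive, 24 negative), or 41.2%, beside 24% of all genes, among them Phf10 (0.28), Ctcf (0.26), Atrx (0.35) and Pbrm1 (0.33) with a positive sign and Hdac7 (-0.36), Dot1l (-0.37) and Actl6b (-0.22) with a negative one. After GC correction 18 were called, without Hdac7 (adjusted p = 0.19) and Dot1l (adjusted p = 0.0567), and with the library term 0.

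Fluoxetine in WT changed 20 of the 114 (7 up, 13 down), or 17.5%, beside 8.43% of all genes. Hdac3 (0.11), Mbd6 (0.24), Setdb2 (0.28) and Rcor3 (0.19) rose, and Rcor1 (-0.25), Kmt5a (-0.26), the Polycomb partner Jarid2 (-0.37) and the H3K36 demethylase Kdm2a (-0.14) fell. Of these Hdac3 lost its call after GC correction (adjusted p = 0.0526). Lithium in WT changed 23 (12 up, 11 down), or 20.2%, close to the 19.2% of all genes: Asxl1 (0.16), Asxl2 (0.21), Nsd3 (0.13) and Rbbp5 (0.10) rose, and Rcor2 (-0.25), the BAF subunits Ss18 (-0.28) and Smarcd3 (-0.15) and Sin3a (-0.19) fell. Smarcd3 lost its call after GC correction (-0.06, adjusted p = 0.215). Het exceeded WT in vehicle in 1, Baz1b, at 0.13 (SE 0.03, limma adjusted p = 0.0312). Lithium in Het lowered 1, the H3K9 methyltransferase Suv39h1, at -0.16 (SE 0.04, limma adjusted p = 0.0477). The shares of all genes called in these comparisons are given above with the members, and single genes do not set the list apart. Between genotypes under lithium, and for the difference of the lithium effect, limma called 0 of the 114, and edgeR also 0, with 11 and 9 at an unadjusted p below 0.05 in limma.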

How the data were processed

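RNA was read from 60 libraries of prefrontal cortex, 5 for each of 12 groups of genotype, drug and sex. Per the labels' protocols the mRNA kit keeps strand. Whether the counting did is not stated in the labels, so reads of overlapping or near-identical genes are uncertain. The submitters' processing notes name Salmon 0.11.2, DESeq2 1.19.11, R 3.6.0 and GRCm38. The values deposited by the authors are a signal, normalised read counts per gene. Dividing by each library's step gave whole reads for 100% of values (tolerance 0.001), and totals of 23901635 to 37769417 reads per library. Counting error was not set against the spread of single genes between libraries.

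Gene identifiers were matched to GENCODE M21 (18077 of 18088). The 17810 genes that reached 10 in 5 or more libraries were fitted in limma 3.58.1 (R 4.3.3) on log2(value + 1) with 12 group means, trended robust variances and 48 residual degrees of freedom, and p-values were adjusted over all genes by Benjamini-Hochberg. Although the design allowed for counts, this test was used because the values are normalised. There were 9 contrasts averaged over the sexes and 7 tests of a sex difference. The fit was tested on simulated data. The GC correction subtracts a loess curve (span 0.3) of each library's deviations on the GC content of the longest transcript (known for 99.9% of genes). The library term marks the 10 libraries low in 16 pseudogenes, taken from 23 genes over 4-fold apart between Het and WT under fluoxetine. Other alternatives were a GC and length correction, trimmed mean of M values scaling, no filter, a pseudocount of 5, the compared groups alone, edgeR 4.0.16 on the whole reads (17776 genes), a replicate block, leaving out the 3 libraries with the largest residuals and leaving out each library. Those for the sex difference were chosen after seeing the data.

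The members and lists were chosen with earlier results of these data known. Within a contrast, called members were named by smallest p, up to 8 in each direction, with both groups' values, and other chromatin genes up to 4 in each direction. Some genes that this rule would name are not reported here. Replicate numbers were checked for pairing: the median correlation of same-numbered libraries was between -0.005 and 0.004, so they were not taken as pairs.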

Additional observations from a re-analysis of the deposited data

Results flagged for a closer look

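In 26 cases 1 library stood apart from the other 9 of its genotype-by-drug group by Dixon's criterion, which chance meets in about 1 in 20 groups. WT vehicle female replicate 2 did so in 5 genes: Setd5 (4234.3), Chd1 (826.6), Chd3 (20454.2), Hdac2 (2702.1) and Hdac5 (3701.2, nearest 4859.5). WT lithium male replicate 5 did so in 4: Ash1l (5952.2), Kdm5a (1644.1), Chd1 (950.6) and Smarcc2 (5943.6). WT vehicle female replicate 3 did so in Hdac4 (2486.8), Dnmt3a (5986.1) and Ehmt1 (1351.5). WT lithium female replicate 5 did so in Smarcc1 (1877.2) and Ncor1 (5552.9). Het fluoxetine male replicate 1 did so in Smarcc2 (13037.1, nearest 7847.6) and Hdac5 (4451.5, nearest 3855.8), and Het vehicle male replicate 5 in Kmt2e (4024.1) and Chd7 (762). Single cases were Kmt2d in Het lithium female replicate 2 (4068.6) and in WT fluoxetine male replicate 1 (4887.3), Kdm5a in Het vehicle female replicate 2 (1430.3), Kdm5b in Het fluoxetine male replicate 2 (2209.1), Chd4 in Het fluoxetine male replicate 5 (4323.8), Chd6 in WT vehicle male replicate 1 (2013.1), Tet2 in WT fluoxetine female replicate 5 (1846.3) and Ncor1 in WT fluoxetine male replicate 2 (6677.8).

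In 21 cases an effect differed between groups in a tested interaction in limma. The lithium effect in WT, female minus male, differed for Kmt2b (0.321), Setd1a (0.223), Arid2 (-0.375), Tet1 (-0.519) and Dnmt3a (-0.295). The fluoxetine effect, Het minus WT, differed for Kmt2b (-0.255), Kmt2c (0.229), Kmt2d (-0.307), Setd1a (-0.279), Setd2 (0.181), Nsd1 (0.155), Ash1l (0.253), Kdm5a (0.27), Arid2 (0.279), Smarca2 (0.168), Crebbp (-0.172), Hdac2 (0.238), Hdac5 (-0.343), Tet1 (0.455) and Ncor1 (0.128). The lithium effect, Het minus WT, differed for Chd2 (-0.227).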

How the results depend on the processing

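The counts of called members were within 1.5 times the reported ones with no filter, with a pseudocount of 5 and with edgeR. The replicate block gave 14 members for the fluoxetine interaction, against 15 without it, and no other count moved, and 10 of 60 libraries correlated best with their own number. For Het minus WT in vehicle 2 members were called with the GC correction, the GC and length correction, the block with GC correction and without the 3 libraries, and 3 with the library term and GC correction. For Het minus WT in fluoxetine the counts were 12, 11 and 13 in the first 3 of these settings and 1 with the library term, with or without GC correction. For fluoxetine in WT the GC and length correction gave 16, and for fluoxetine in Het the library term gave 2, with or without GC correction. For lithium in WT the compared groups alone gave 4. For lithium in Het the GC and length correction gave 2, and the GC correction, the block with GC correction, the library term with GC correction, the compared groups alone and leaving out the 3 libraries gave 1. For the fluoxetine interaction the counts were 8 (GC), 9 (GC and length), 7 (block with GC), 0 (library term) and 1 (library term with GC). For the lithium interaction they were 3 (GC, block with GC, library term), 4 (library term with GC) and 0 (trimmed mean of M values, compared groups alone). There the GC and length correction called Setd1a, and the fit without the 3 libraries called Setd5, each in place of Chd2. For the sex difference the counts were 0 with GC correction, library term and without the 3 libraries. Counts in this section come without the share of all genes called, so they do not set the members apart. The cause of the changes was not tested.

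Leaving out single libraries gave 0 to 1 members for Het minus WT in vehicle (1 without WT vehicle female replicate 3), 17 to 24 in fluoxetine and 0 in lithium, 7 to 10 for fluoxetine in WT, 22 to 26 in Het, 9 to 14 for lithium in WT, 0 to 1 in Het (1 without Het lithium female replicate 1), 12 to 17 and 0 to 3 for the fluoxetine and lithium interactions, and 0 to 11 for the sex difference.

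Signs turned under some settings. In Het minus WT in fluoxetine the GC correction, with or without the block, put Kmt2b at 0.023, Kmt2d at 0.088, Setd1a at 0.006, Kdm6b at 0.009, Arid1a at 0.047 and Smarca4 at 0.039. The GC and length correction put Kmt2d at 0.008, Setd2 at -0.021, Chd1 at -0.02 and Mbd5 at -0.024. The library term put Kmt2d at 0.093, Setd5 at -0.023, Arid1a at 0.045, Smarca4 at 0.089, Smarcc1 at -0.011, Hdac2 at -0.008 and Hdac5 at 0.027. With GC correction added it put Kmt2b at 0.019, Kmt2d at 0.145, Setd1a at 0.001, Setd5 at -0.03, Arid1a at 0.088, Smarca4 at 0.127, Smarcc1 at -0.015, Hdac2 at -0.032 and Hdac5 at 0.087. In fluoxetine in Het the GC correction, with or without the block, put Setd1a at 0.057 and Arid1a at 0.015, and the GC and length correction Setd1a at 0.026 and Chd1 at -0.02. The library term put Setd1a at 0.048, Setd5 at -0.016, Chd1 at -0.01, Arid1a at 0.054, Smarca4 at 0.056, Hdac2 at -0.004 and Dnmt1 at 0.127. With GC correction added it put Setd1a at 0.051, Setd5 at -0.05, Nsd1 at -0.016, Chd1 at -0.026, Arid1a at 0.056, Smarca4 at 0.051, Hdac2 at -0.017 and Dnmt1 at 0.102. The fluoxetine interaction of Hdac5 was 0.038 with the library term and 0.06 with GC correction added.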
